A study of Mus musculus with 6 samples.

Results

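The proliferation genes described here are 46 genes of the cell cycle, 26 that act in G2 phase and mitosis and 20 that act at the start and during S phase, when DNA is replicated. They were listed by name for these roles, and all their probes on the array were used, which gave 68 probes, 38 for the mitosis genes and 30 for the replication genes, of 33767 probes with a gene name. Each was measured in microglia, the resident macrophages of the brain, sorted by flow cytometry as CD45lo CD11b+ Cx3cr1+ cells. The 3 control samples came from Bhlhe41 dTomato-Cre/+ mice (B41HET), which carry 1 allele with a reporter and Cre cassette, and the other 3 from Bhlhe41 dTomato-Cre/dTomato-Cre mice (B41KO), in which both alleles carry it. In the study's design the cassette lies ahead of the start codon of *Bhlhe41* and stops its translation, so that every sample carries dTomato and Cre under the *Bhlhe41* promoter and no wild-type sample was compared. The mice were 3 months old, and by the study's methods a sample pooled cells of 10 to 15 mice, whereas the labels count 3 mice per genotype.

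Cells copy their DNA in S phase and divide in mitosis, and each step has its own set of genes. At the start of S phase, E2F transcription factors act on genes for the replicative helicase (the MCM and GINS proteins), the sliding clamp *Pcna* and nucleotide synthesis. Later, in G2 phase and mitosis, cyclins A and B with the kinase Cdk1, the Aurora and Polo kinases, motor proteins and centromere proteins rise, many of them through CCAAT boxes and CHR elements in their promoters. Adult microglia divide slowly, so that in a bulk sample of sorted cells these transcripts may come from few cells. Fewer cells of a type, such as cycling cells, and less RNA per cell cannot be told apart in such samples.

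Intensities are given as log2 values after quantile normalization, and differences as log2 fold change of B41KO minus B41HET with its standard error (SE) from limma. Calls required that the p adjusted over all 56601 probes tested was 0.05 or less and that the log2 fold change reached 0.5 in either direction. Where a gene had several probes, the brightest stood for it in counts of genes. On the 6 arrays 70.05% to 75.47% of the probes were well above background, and none was saturated. *Bhlhe41* itself was not lower in B41KO (brightest probe 7.95, 7.87 and 7.65 in B41HET and 8.56, 7.84 and 8.21 in B41KO). Its other probe lay above the B41HET samples in every B41KO sample without being called (0.33 ± 0.13, adjusted p = 0.203). By the study's design the cassette ends in a polyA sequence ahead of the coding sequence. How much *Bhlhe41* RNA this leaves was not tested, so these probes do not check the labels. All 12 microglial markers were well above background on every array, and 1 of them, *Fcrls*, was called lower.

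Of the 46 genes, 2 were called higher in B41KO and 3 lower, all 5 of them mitosis genes, and 41 were not called. Among all 23462 genes tested by their brightest probe, 1.44% were called higher and 4.01% lower, against 4.35% and 6.52% of the members. The genes called higher were *Ccnb1*, which encodes cyclin B1, the partner of Cdk1 at entry into mitosis, and *Ccnb1-ps*, a pseudogene of it. Those called lower were *Top2a*, the topoisomerase that untangles replicated chromosomes, *Ccna2*, which encodes cyclin A2, and *Cenpa*, the histone H3 variant of centromeres. None of the 20 replication genes was called by its brightest probe, while 6 of them (30%) had an unadjusted p under 0.05 in limma, near the 25% of all genes. Over single probes, 3 of the 68 were called higher and 5 lower, beside 1.72% and 3.34% of all probes. The plot of fold changes by gene shows most members close to 0, with 40 of the 46 within 0.5 of it on the log2 scale.

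**Figure D1:**
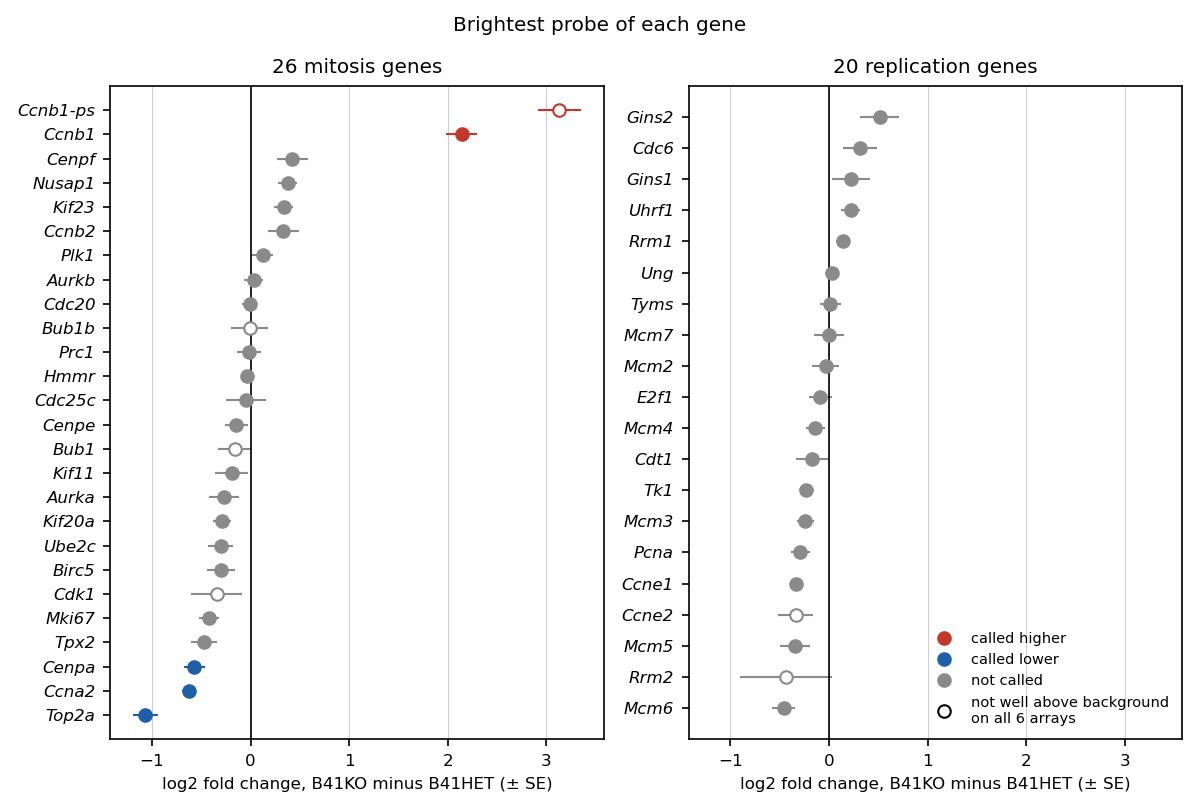
Log2 fold change (B41KO minus B41HET, 3 samples each) with its SE for the brightest probe of each of the 26 mitosis genes (left) and 20 replication genes (right); colour gives the call, and open symbols mark probes not well above background on all 6 arrays. *Ccnb1* and *Ccnb1-ps* stand at 2.14 and 3.13, the latter a fitted value of a probe near background in B41HET, *Top2a* at -1.07, and the replication genes lie between -0.46 and 0.51.

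The promoters of *Ccnb1*, *Top2a* and *Cenpa* are shown because these genes moved in opposite directions. They were searched for CCAAT boxes and CHR elements, which are known from promoters of mitosis genes. RefSeq windows on GRCm38.p6, each from 250 bases before to 50 bases after the annotated start, were given for 36 of the 46 genes, and 3 of these had 2 windows. The 250 bases before the start are printed 5′ to 3′ on the strand of the gene, for *Ccnb1* chr13:100786487-100786736 (minus strand), for *Top2a* chr11:99024190-99024439 (minus strand) and for *Cenpa* chr5:30666636-30666885 (plus strand). Capitals mark CCAAT boxes (CCAAT, or ATTGG on the other strand) and CHR elements (TTTGAA or TTCGAA, either strand), and no matches overlapped.
Ccnb1: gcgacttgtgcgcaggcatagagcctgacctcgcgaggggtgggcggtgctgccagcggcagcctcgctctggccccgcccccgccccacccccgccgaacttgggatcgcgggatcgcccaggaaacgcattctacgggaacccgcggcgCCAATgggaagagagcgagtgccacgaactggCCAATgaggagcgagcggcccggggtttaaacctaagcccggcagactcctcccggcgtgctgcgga
Top2a: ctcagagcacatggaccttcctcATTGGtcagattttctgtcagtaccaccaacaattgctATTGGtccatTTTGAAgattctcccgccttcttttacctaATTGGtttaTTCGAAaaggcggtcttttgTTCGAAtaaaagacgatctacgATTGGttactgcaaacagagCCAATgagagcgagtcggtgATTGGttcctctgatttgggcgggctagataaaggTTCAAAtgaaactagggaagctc
Cenpa: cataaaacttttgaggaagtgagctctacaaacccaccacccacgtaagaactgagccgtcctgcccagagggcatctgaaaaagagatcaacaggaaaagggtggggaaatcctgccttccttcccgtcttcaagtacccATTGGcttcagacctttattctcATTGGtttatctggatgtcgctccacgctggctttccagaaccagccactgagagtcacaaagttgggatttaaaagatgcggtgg
The *Ccnb1* stretch held 2 CCAAT boxes, 99 and 67 bases before the start, and no CHR element as spelled here. The *Top2a* stretch held 6 CCAAT boxes and 4 CHR elements. In *Cenpa* there were 2 CCAAT boxes, and 1 CHR element lay in the bases after the start, which are not printed.

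Across the windows of all members the elements divided by role. CHR elements were found in 17 of 21 windows of mitosis genes (81%) and 2 of 18 windows of replication genes (11.1%), against 19.2% of all 32851 windows. The E2F core (GCGGGAA or GCGCGAA, either strand) showed the reverse, with 2 mitosis windows (9.52%) and 10 replication windows (55.6%), against 6% of all windows. CCAAT boxes were in 90.5% of mitosis windows, 61.1% of replication windows and 37.4% of all. The E-box CACGTG, the sequence that Bhlhe41 and its paralogue bind, was in none of the mitosis windows and in 1 of the replication windows, that of *Tyms*, against 7.15% of all windows. These matches describe letters in a fixed window, and no test was made of them. The study reported Bhlhe41 binding at E-boxes that included sites farther upstream than these windows reach. Such distant sites of the members are not covered here.

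Cyclin B1 gave the largest called difference among members well above background on every array. Its brightest probe read 6.56, 6.90 and 6.41 in the B41HET samples and 8.67, 8.95 and 8.68 in the B41KO samples. All B41KO samples lay above all B41HET samples, by a gap far wider than the spread within either genotype. The log2 fold change was 2.14 ± 0.16 (SE, n = 3 per genotype), 4.41-fold higher in B41KO, with a limma adjusted p of 0.00413. A dimmer *Ccnb1* probe read 6.30, 6.61 and 6.42 in B41HET and 7.40, 7.33 and 7.36 in B41KO. It was called in the same direction but with a smaller size, 0.92 ± 0.10 (adjusted p = 0.00964), a 1.89-fold difference. The third *Ccnb1* probe did not rise well above background on any array, and no fold is given for it.

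The pseudogene *Ccnb1-ps* read 2.24, 1.43 and 2.01 in B41HET, not well above background on any of these arrays, and 4.998, 5.17 and 4.90 in B41KO, well above it on all 3. The difference was therefore taken as a bound, at least 6.02-fold higher in B41KO under the reported processing (limma adjusted p = 0.00366). With normexp background correction the fitted log2 fold change was only 0.60. The pseudogene copies the *Ccnb1* transcript, and whether the probes of *Ccnb1* and *Ccnb1-ps* tell the copies apart was not tested, so both values stay uncertain as to their source. The other B cyclin, *Ccnb2*, was not called (0.33 ± 0.16, adjusted p = 0.280), and neither was the kinase partner *Cdk1* (-0.34 ± 0.26, adjusted p = 0.502). The *Ccnb1* and *Ccnb1-ps* calls held in each of the 6 fits that left out 1 sample, with log2 fold changes of 2.03 to 2.28 for the brightest *Ccnb1* probe.

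**Figure D2:**
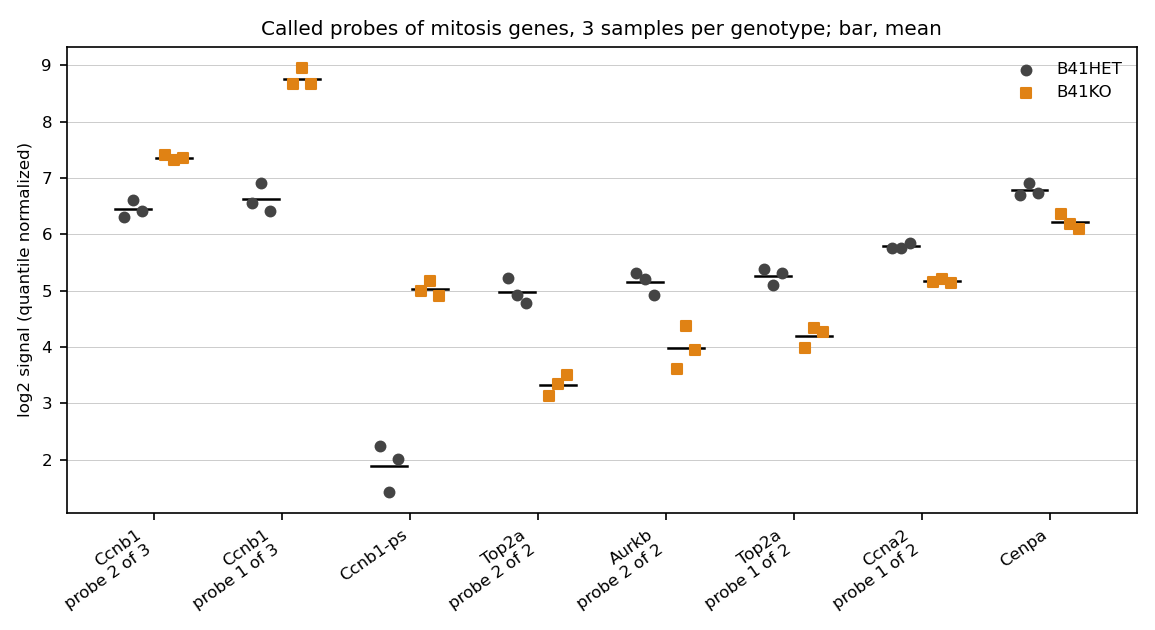
Log2 signal in each of the 3 B41HET (circles) and 3 B41KO (squares) samples for the 8 called probes of mitosis genes, with the mean as a bar; probes of a gene are numbered by brightness. The genotypes do not overlap for any of these probes, and the widest gap, for *Ccnb1-ps*, starts from B41HET values near background.

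*Top2a* was the only gene with several probes of which each was called. Its brightest probe read 5.38, 5.10 and 5.32 in B41HET and 3.99, 4.34 and 4.27 in B41KO. The log2 fold change was -1.07 ± 0.13 (adjusted p = 0.0133), 2.09-fold lower in B41KO. The dimmer probe read 5.23, 4.93 and 4.79 in B41HET and 3.12, 3.34 and 3.51 in B41KO, for a log2 fold change of -1.66 ± 0.16 (adjusted p = 0.00732), 3.16-fold lower. On both probes every B41KO sample lay below every B41HET sample. With 1 sample left out, the dimmer probe was called in all 6 fits, but the call of the brightest was lost without B41HET replicate 1 (adjusted p = 0.0558) or without B41HET replicate 3 (adjusted p = 0.0541).

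*Ccna2* is needed in S phase and again at entry into mitosis. Its brightest probe read 5.77, 5.76 and 5.85 in B41HET and 5.15, 5.20 and 5.14 in B41KO, with no overlap and a spread of at most 0.05 (SD) within a genotype. The log2 fold change was -0.63 ± 0.07 (adjusted p = 0.00995), or 1.54-fold lower, and without B41HET replicate 2 the adjusted p was 0.0517. The dimmer probe, at 4.74, 4.17 and 4.38 against 4.39, 4.40 and 4.10, overlapped between genotypes and was not called (-0.13 ± 0.17, adjusted p = 0.702). The call on *Ccna2* therefore rests on 1 of its 2 probes.

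*Cenpa* has a single probe, which read 6.70, 6.90 and 6.74 in B41HET and 6.36, 6.18 and 6.10 in B41KO. Its log2 fold change was -0.57 ± 0.10 (adjusted p = 0.0358), 1.48-fold lower in B41KO without overlap. The call was lost in each of the 6 fits with 1 sample left out, where the adjusted p ran from 0.0583 to 0.114 and the log2 fold change from -0.64 to -0.50. Of the 3 genes called lower by the brightest probe, 1 was left without B41HET replicate 1 or 3 (*Ccna2*) and 1 without B41HET replicate 2 (*Top2a*).

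The Aurora kinases order the mitotic spindle (*Aurka*) and the segregation of chromosomes and cytokinesis (*Aurkb*), and the study deleted *Aurka* in microglia in other experiments. *Aurka* read 4.47, 3.96 and 4.41 in B41HET and 4.07, 4.03 and 3.93 in B41KO. Its samples overlapped between genotypes, and the difference of -0.27 ± 0.15 was not called (adjusted p = 0.370). That difference ran from -0.43 to -0.17 with 1 sample left out and was -0.03 with normexp background correction, called in none of these. The probes of *Aurkb* disagreed. Its brightest read 7.60, 7.67 and 7.63 in B41HET and 7.79, 7.71 and 7.50 in B41KO (0.03 ± 0.10, adjusted p = 0.893), while the dimmer read 5.32, 5.21 and 4.92 in B41HET and 3.61, 4.37 and 3.94 in B41KO. The dimmer probe was called 2.26-fold lower (-1.18 ± 0.22, adjusted p = 0.0384), a call lost in 5 of the 6 fits with a sample left out. No direction for *Aurkb* can be read from these probes.

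*Mki67*, whose product Ki-67 coats mitotic chromosomes and marks cycling cells, read 6.27, 6.18 and 6.17 in B41HET and 5.65, 5.75 and 5.96 in B41KO. The genotypes did not overlap, but the difference of -0.42 ± 0.10 did not pass the threshold (adjusted p = 0.0713). *Tpx2*, which activates Aurora A on the spindle, gave -0.47 ± 0.13 (adjusted p = 0.103), with every B41KO sample below every B41HET sample. *Kif20a*, a kinesin of cytokinesis, at -0.29 ± 0.09 (adjusted p = 0.134), and *Ube2c*, the ubiquitin-conjugating enzyme of mitotic exit, at -0.30 ± 0.13 (adjusted p = 0.233), likewise lay lower in B41KO in each sample without being called.

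Other mitosis genes lay the opposite way. *Nusap1*, a spindle-associated protein, was above the B41HET samples in every B41KO sample (0.37 ± 0.09, adjusted p = 0.0758). The same order held for the brightest probes of *Kif23*, a kinesin of the central spindle (0.34 ± 0.10, adjusted p = 0.109), and *Cenpf*, a kinetochore protein (0.42 ± 0.16, adjusted p = 0.191). Between these stood *Plk1*, the Polo kinase (0.12 ± 0.11), *Cenpe*, a kinetochore motor (-0.14 ± 0.12), *Kif11*, the motor that separates the spindle poles (-0.19 ± 0.16), and *Cdc25c*, the phosphatase that activates Cdk1 (-0.05 ± 0.20). The checkpoint kinase gene *Bub1b* differed by -0.01 ± 0.18 and was well above background on 2 of the 3 B41KO arrays, as was *Cdk1*. *Bub1* stayed below that limit on every array.

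Over the 26 mitosis genes, 8 log2 fold changes were above 0 and 18 below, with a median of -0.09, which ran from -0.18 by the lowest-p probe of each gene to -0.02 with normexp background correction, and was -0.06 without B41HET replicate 1. In 7 of the 26 (26.9%) every B41KO sample was below every B41HET sample, and in 5 (19.2%) above. Among all genes these shares were 18% and 14.2%, and the median log2 fold change was 0.01. The 22 mitosis genes well above background on all 6 arrays had the same median, -0.09.

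The replication genes showed smaller differences. *Pcna*, the sliding clamp of DNA polymerase, read 10.70, 10.55 and 10.48 in B41HET and 10.38, 10.26 and 10.22 in B41KO. Every B41KO sample lay below every B41HET sample, but the difference of -0.29 ± 0.09 was not called (adjusted p = 0.135). *Ccne1*, which encodes cyclin E1 of the G1 to S transition, read 6.68, 6.65 and 6.71 in B41HET and 6.36, 6.37 and 6.32 in B41KO. At -0.33 ± 0.06 (adjusted p = 0.0429) it passed the adjusted p and not the fold threshold, the only replication gene whose brightest probe did.

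Among subunits of the MCM helicase, all 3 probes of *Mcm3* lay lower in every B41KO sample, by -0.24 ± 0.09, -0.14 ± 0.07 and -0.29 ± 0.08 from brightest to dimmest (adjusted p = 0.175, 0.280 and 0.0910). *Mcm5* differed by -0.34 ± 0.15, *Mcm4* by -0.14 ± 0.09 and *Mcm2* by -0.03 ± 0.14, with overlap. The brightest probe of *Mcm6* read 7.03, 6.78 and 6.63 in B41HET and 6.32, 6.41 and 6.33 in B41KO (-0.46 ± 0.12, adjusted p = 0.0843). Its other probe pointed the opposite way, at 6.31, 6.10 and 6.11 against 6.42, 6.31 and 6.28 (0.16 ± 0.09, adjusted p = 0.367). For *Mcm7* the brightest probe did not differ measurably, at 8.89, 8.93 and 8.56 against 8.97, 8.58 and 8.83 (0.00 ± 0.15). The dimmer *Mcm7* probe read 8.35, 8.24 and 8.23 in B41HET and 7.92, 7.87 and 7.86 in B41KO (-0.39 ± 0.07, adjusted p = 0.0357), which passed the adjusted p and not the fold threshold.

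The GINS complex joins MCM in the active helicase. *Gins2* had the largest positive difference of the replication genes on its brightest probe, which read 9.70, 9.85 and 10.13 in B41HET and 10.10, 10.36 and 10.76 in B41KO (0.51 ± 0.20, adjusted p = 0.204). The dimmer *Gins2* probe ran the other way, 7.07, 7.04 and 7.09 against 6.53, 6.91 and 6.61 (-0.39 ± 0.11, adjusted p = 0.116). Both probes of *Gins1* lay above 0 (0.22 ± 0.19 and 0.26 ± 0.28), with overlap between the genotypes. The licensing factors *Cdc6* (0.32 ± 0.17) and *Cdt1* (-0.17 ± 0.16) were not called, and nor was *E2f1*, which encodes an E2F factor (-0.09 ± 0.11).

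Of the enzymes of nucleotide supply, the ribonucleotide reductase subunit *Rrm1* gave 0.15 ± 0.07 and thymidylate synthase, *Tyms*, 0.01 ± 0.11 and 0.07 ± 0.19 on its 2 probes. Thymidine kinase, *Tk1*, read 6.89, 6.90 and 6.94 in B41HET and 6.70, 6.74 and 6.61 in B41KO on its brightest probe (-0.23 ± 0.07, adjusted p = 0.130), and its dimmer probe differed by 0.10 ± 0.16. *Rrm2* and *Ccne2* were not well above background on any array. *Ung*, which removes uracil from DNA, was the brightest replication probe and held 16.64, 16.60 and 16.71 against 16.64, 16.71 and 16.68 (0.03 ± 0.07, adjusted p = 0.865). Its probe ranked between 9 and 16 among the 56605 probes on every array, and quantile normalization gives equal ranks equal values.

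Over the 20 replication genes, 7 log2 fold changes were above 0 and 13 below, with a median of -0.11. This median ran from -0.20 by the lowest-p probe of each gene to -0.04 with normexp, and was -0.05 without B41HET replicate 2. In 5 genes (25%) the B41KO samples lay below the B41HET samples without overlap, and in 2 (10%) above, against 18% and 14.2% of all genes. Of the 18 well above background on all 6 arrays, 11 were below 0, with a median of -0.06. The median SE of a replication gene was 0.12.

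**Figure D3:**
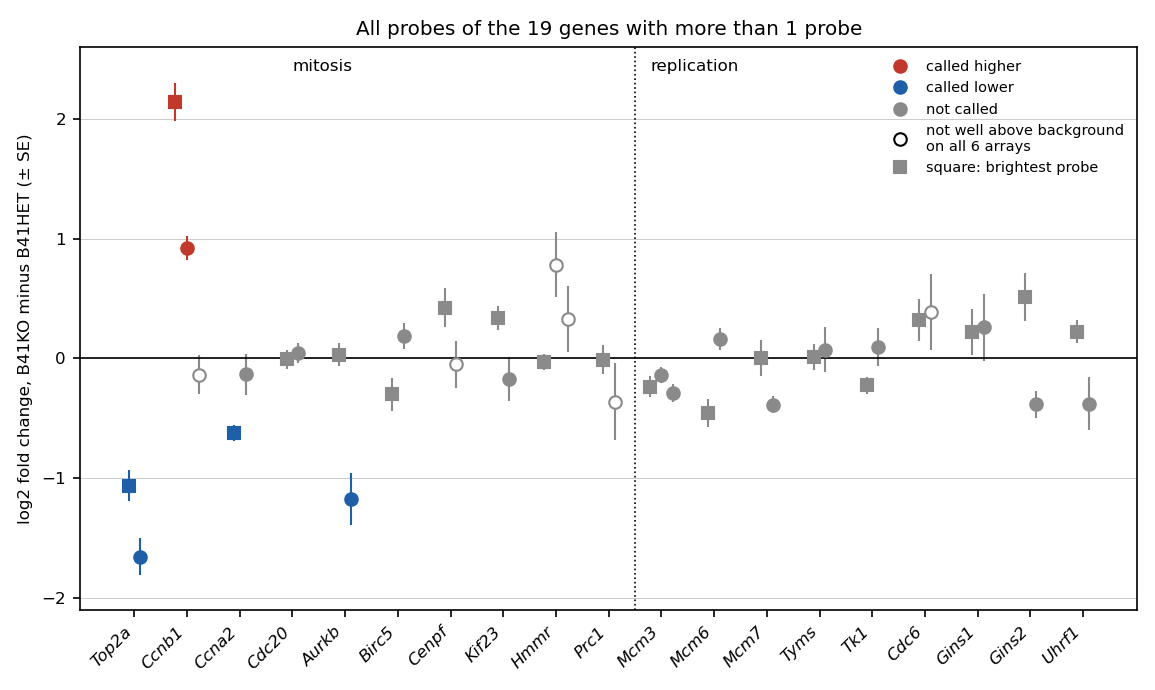
Log2 fold change (B41KO minus B41HET) with its SE for each probe of the 19 member genes with more than 1 probe; squares are the brightest probe of a gene, colour gives the call and open symbols mark probes not well above background on all 6 arrays. Both *Top2a* probes are called lower, while *Aurkb* is called on its dimmer probe alone and the 2 *Ccnb1* probes above background lie 1.22 apart on the log2 scale.

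The plot of genes with several probes shows how far the probes of 1 gene lay apart. Of the 19 such genes, 16 had 2 probes and 3 had 3. *Top2a* was called on all its probes, *Ccnb1*, *Ccna2* and *Aurkb* on some and the other 15 on none. Leaving out probes not well above background on any array, 18 genes had more than 1 probe, and in 10 of them (55.6%) the probes had opposite signs, 6 of them mitosis genes and 4 replication genes, near the 49.5% of all 6429 such genes. For some, such as *Cdc20*, the probes differed by less than their SE. None was called in both directions.

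The probes of *Cdc20*, the activator of the anaphase-promoting complex, read 10.19, 10.26 and 10.37 against 10.20, 10.27 and 10.32, and 8.38, 8.53 and 8.53 against 8.42, 8.59 and 8.56, differences of -0.01 ± 0.08 and 0.04 ± 0.08. For *Birc5*, which encodes the survivin subunit of the Aurora B complex, the brighter probe gave -0.30 ± 0.14 and the dimmer 0.19 ± 0.11. The dimmer probes of *Kif23* (-0.17 ± 0.18) and *Cenpf* (-0.05 ± 0.20) lay below 0, and their brighter ones above it. *Uhrf1*, which carries DNA methylation through replication, gave 0.22 ± 0.10 on its brighter probe, above the B41HET samples in every B41KO sample, and -0.38 ± 0.22 on its dimmer. With 1 sample left out, the dimmer *Uhrf1* probe ran from -0.55 to -0.20.

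*Hmmr*, a spindle protein and hyaluronan receptor, was the brightest mitosis probe and read 11.71, 11.74 and 11.74 in B41HET and 11.72, 11.72 and 11.65 in B41KO (-0.03 ± 0.06, adjusted p = 0.810). A dimmer *Hmmr* probe read 3.60, 2.57 and 3.20 in B41HET, well above background on 2 of these arrays, and 3.71, 4.02 and 3.98 in B41KO (0.78 ± 0.27, adjusted p = 0.163). Both probes are named for the same transcript yet lie far apart in level, and which RNA the brightest reads was not tested. *Prc1*, a bundler of the central spindle, gave -0.01 ± 0.12 and -0.36 ± 0.32 on its 2 probes. The other dim probes of *Hmmr* and *Cdc6* were not well above background on any array.

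Further genes of the same processes, from lists of 48 mitosis and 48 replication genes that are not members, were called lower in 4 (8.33%) and 3 (6.25%) cases and higher in none, against 4.01% lower and 1.44% higher of all genes. *Incenp*, the scaffold of the Aurora B complex, read 9.36, 9.29 and 9.22 in B41HET and 8.37, 8.46 and 8.27 in B41KO (-0.92 ± 0.08, adjusted p = 0.00681). *E2f2*, an E2F transcription factor, read 6.11, 6.14 and 5.96 in B41HET and 4.27, 4.91 and 4.95 in B41KO (-1.36 ± 0.20, adjusted p = 0.0219). Both showed a gap between genotypes wider than the spread within either. *Slbp*, which binds histone messenger RNA, gave -0.63 ± 0.11 (adjusted p = 0.0303) and *Nuf2*, a kinetochore protein, -0.56 ± 0.11 (adjusted p = 0.0390). *Ncapg*, a condensin subunit, was well above background on the 3 B41HET arrays and no B41KO array, at least 1.77-fold lower in B41KO (adjusted p = 0.0331). *Anln* was called lower without being well above background on any array, and no fold is given for it. The medians over these lists were -0.19 for mitosis and -0.06 for replication, with 36 and 28 of 48 genes below 0. Over the genes well above background on all 6 arrays, 32 and 39, they were -0.10 and -0.08. Only *Incenp* and *Anln* were called in all 6 fits with 1 sample left out, in which 2 to 4 of the 7 genes remained.

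Markers of some other cells moved with genotype, above all those of neutrophils and border macrophages. The lists of border macrophages, dendritic cells and B cells had median log2 fold changes of -1.06, -0.17 and -0.06. Of 12 genes of neutrophils and their precursors, 9 were called lower in B41KO with a median of -2.02, and their summed normalized signal was 22883 to 25670 in B41HET and 3865 to 4205 in B41KO. Of the granule genes of dividing precursors among them, *Prtn3* (-1.81, adjusted p = 0.00209), *Ctsg* (-0.97, adjusted p = 0.0124) and *Fcnb* (-2.39, adjusted p = 0.00815) were called lower, and *Mpo* (0.39, adjusted p = 0.157) and *Elane* (-0.04, adjusted p = 0.917) were not called. Border macrophage markers were called lower in 5 of 10 genes (summed signal 2523 to 2718 against 1742 to 1919, of which *Stab1* made up 81.3% to 85.4%), endothelial markers in 2 of 10, *Ly6c1* and *Pecam1* (1302 to 1381 against 557.3 to 634.1, of which *Ly6c1* made up 35.4% to 57%, with a median log2 fold change of -0.07 over the list), dendritic cell markers in 2 of 9 (377.9 to 432.8 against 238.7 to 262.2 without *Batf3*, which made up 74.2% to 84.2% of the sum) and B cell markers in 1 of 12 (2503 to 2825 against 2562 to 2616). Of 10 erythroid markers 1 was called higher, *Alas2*, and 4 lay above B41HET in every B41KO sample. Their summed signal without *Hemgn*, which made up 94.7% to 95.9% of the sum, was 4862 to 5137 in B41HET and 5967 to 6241 in B41KO. The part of these cells in the members' differences was not tested. The summed signal of the mitosis genes was 6143 to 6471 in B41HET and 6467 to 6589 in B41KO, with *Hmmr* making up 49.7% to 54.7% of it. Without *Hmmr* the sum was 2784 to 3056 in B41HET and 3141 to 3252 in B41KO, without overlap. Without *Ccnb1* as well, the other 24 genes summed to 2690 to 2971 in B41HET and 2719 to 2843 in B41KO, with overlap. The brightest of these was *Cdc20*, with mean log2 values of 10.27 in B41HET and 10.26 in B41KO, so that it weighs most in this sum. That of the replication genes was 94.3% to 94.8% *Ung*. Without *Ung*, the other 19 replication genes summed to 5949 to 6128 in B41HET and 5648 to 6248 in B41KO.

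The processing also bore on the calls. With background correction by normexp, which adds an offset of 50 to every signal, the 3 genes called lower fell under the fold threshold. *Top2a* then gave -0.41 (adjusted p = 0.00197) and -0.40 (adjusted p = 0.00355) on its 2 probes. *Ccnb1* and *Ccnb1-ps* stayed called, but with smaller sizes, 1.64 for the brightest *Ccnb1* probe and 0.60 for *Ccnb1-ps*. The latter lay under the bound of 2.59 (log2) taken from the reported processing, so its size depends on the handling of background. All 6 arrays lay on 1 slide, the B41HET samples and B41KO replicate 1 in its first row and the other B41KO samples in the second. Within the first row alone, B41KO replicate 1 differed from the mean of the 3 B41HET samples by 2.05 for the brightest *Ccnb1* probe, -1.28 and -1.86 for the *Top2a* probes, -0.64 for *Ccna2* and -0.42 for *Cenpa*, with 1 B41KO sample and no test. A fit with the row as a block gave the same differences, since it too compares B41KO replicate 1 with the 3 B41HET samples. Its error comes from the spread within the 3 B41HET and the other 2 B41KO samples, and the lone sample is assumed to vary like them, so its calls do not test the genotype over replicates.

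**Figure D4:**
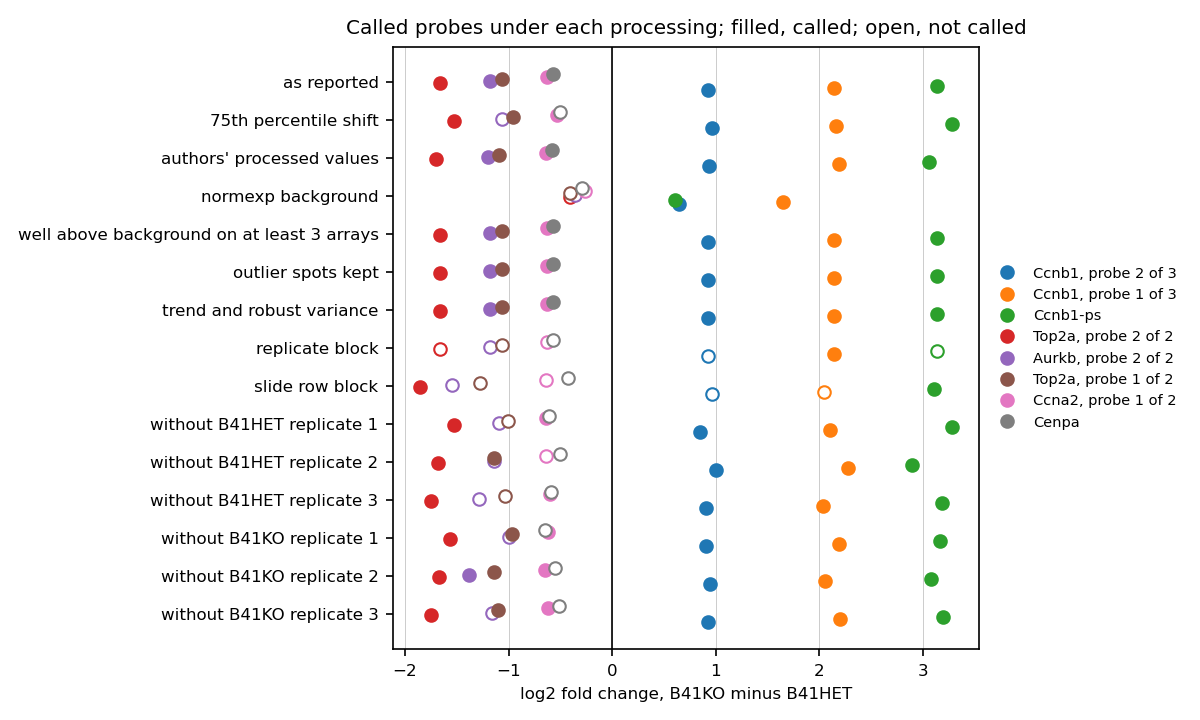
Log2 fold change (B41KO minus B41HET) of the 8 called member probes under the reported processing and 14 alternatives; filled points were called and open points were not. No probe changed sign, and the *Ccnb1* values lie between 0.65 and 2.28. The *Ccnb1-ps* value and those of the genes called lower move closest to 0 with normexp background correction, *Ccnb1-ps* to 0.60.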

How the data were processed

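Total RNA of sorted microglia was labelled with Cy3 and hybridised to SurePrint G3 Mouse GE v2 8x60K arrays, 1 array per sample. The authors deposited the scanner output of Agilent Feature Extraction 11.5.1.1, in which the processed intensity is background-subtracted and detrended within each array and not normalized between arrays, and values near background are replaced by small positive estimates. They also deposited processed log2 values of all samples in a table (56745 per sample, 140 of them controls, column median 5.10), which shared its quantiles over the 6 samples and was used as an alternative. How that file was made is not given in the sources used here beyond quantile normalization.

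From the scanner output, control spots (59305 of 62976 spots were kept) and outlier spots (95 to 136 per array) were left out. Log2 intensities were quantile normalized over the 6 arrays, averaged over spots of a probe, and compared with limma 3.58.1 in R 4.3.3 (version 1.17.8 of data.table), with Benjamini-Hochberg adjustment over 56601 probes with a value in at least 2 samples per genotype. Normalization and limma follow the study's methods. Figures used matplotlib 3.10.9 in Python 3.11.15. The code was tested on simulated data. Probes were named through their transcript accessions and RefSeq genes on GRCm38.p6 (33767 of 56605, 59.65%); the array was designed on mm9, so probes are given without coordinates. The member genes, the marker lists, the further proliferation genes and the motifs were chosen with earlier results of these data known. Every member was named with all its probes, called members and those whose probes disagreed in full, and of the further genes those called, at most 10, of which 1 is not reported here. A probe well above background on no array of one genotype but on arrays of the other was given as a bound, against the higher of its own value and the lowest value among probes well above background on each array. The labels give 3 mice per genotype, while the study's methods give pools of 10 to 15 mice per sample, so whether the spread between samples is that of single mice or of pools is not settled. The 3 arrays per genotype limit the precision; an exact permutation test of 3 against 3 could not go below p = 0.1. Alternatives were a shift to the 75th percentile, the authors' log2 values, normexp with an offset of 50, testing only probes well above background on 3 or more arrays, all outlier spots kept, trend and robust variance, blocks of replicate number or slide row, leaving out each sample, no fold threshold, and the mean or the lowest-p probe of a gene. Normexp was run on median spot and background intensities.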

Additional observations from a re-analysis of the deposited data

How the results depend on the processing

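The 3 samples per genotype and signals near background set the limits here: on none of the arrays were 6 of the 68 member probes well above background. Of the mitosis genes 2 were called higher and 3 lower, the same genes, with the authors' values, the filter on dim probes, outlier spots kept, trend and robust variance, and no fold threshold. The 75th percentile shift called 2 lower, without *Cenpa*, the mean over probes called *Aurkb*, *Cenpa* and *Top2a*, and the lowest-p probe added *Aurkb* for 4. With 1 sample left out, 2 mitosis genes were called higher in every fit and 1 to 3 lower, 0 replication genes in every fit and 2 to 4 of the 7 further genes. The median of the mitosis genes then ran from -0.13 to -0.06 (-0.02 with the 75th percentile shift, -0.02 with normexp, -0.05 with the filter on dim probes, -0.15 by the mean over probes and -0.18 by the lowest-p probe) and that of the replication genes from -0.15 to -0.05 (-0.04 with normexp and -0.06 with the filter on dim probes). With normexp, 0 mitosis genes were called lower and 3 further genes were called. A block for slide row leaves only B41KO replicate 1 to compare with the B41HET samples, and assumes that it varies like the others; 1 mitosis gene was then called higher (*Ccnb1-ps*), 0 lower and 2 further genes, and the replication median was -0.20. By the probe with the lowest p, 12 further genes were called and the replication median was -0.20. Without a fold threshold 1 replication gene was called (*Ccne1*). The cause of these shifts was not tested. Of the 54 uncalled member probes with a level on any array, 0 to 9 changed sign in each of 14 alternatives, each with a reported size of at most 0.174, and *Tpx2* was called without B41KO replicate 3. Among these were *Cdc20* (0.024 with the authors' values, 0.036 with normexp, and -0.055 on its dimmer probe with the row block), *Aurkb* (-0.0019 on its brightest probe with normexp), *Cenpf* (0.13 on its dimmer probe with the 75th percentile shift), *Hmmr* (0.035) and *Mcm7* (0.0020) with the authors' values, and *Mcm7* (0.18) and *Ung* (-0.0087) with the row block. With a sample left out, the ranges that crossed 0 among the probes followed singly were -0.26 to 0.018 for the dimmer *Ccna2* probe, -0.053 to 0.037 and -0.0033 to 0.095 for the *Cdc20* probes, -0.032 to 0.11 for the brightest *Aurkb* probe, -0.26 to 0.065 for the dimmer *Cenpf*, -0.29 to 0.014 for the dimmer *Kif23*, -0.12 to 0.11 for the brightest *Mcm7* and -0.019 to 0.22 for the dimmer *Tk1* probe. Over all probes, 975 were called higher and 1892 lower, 34% of calls higher; with the 75th percentile shift it was 1305 and 1523, 46.1% higher, and the median gene moved from 0.01 to 0.10. Normexp called 423 and 1077, the row block 184 and 260, and the fits without a sample 796 to 1487 in all, against 2867.

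Samples with the same replicate number did not deviate together (correlations of 0.03, 0.01 and 0.05 over all probes), so the numbers were not taken to pair the samples. With the replicate number as a block, 2 probes of all were called higher and 40 lower. Of the mitosis genes 1 was then called higher (*Ccnb1*) and 0 lower, and 0 further genes were called.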
